A study of Mus musculus with 4 samples.

Results

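The AP-1 family was examined in LSK-SLAM cells, a sorted fraction (Lin- Sca1+ cKit+ CD150+ CD48-) in which haematopoietic stem cells (HSCs) are enriched. The family comprises the Fos genes Fos, Fosb, Fosl1 and Fosl2 and the Jun genes Jun, Junb and Jund, and all 7 were listed among the 23906 gene symbols of each library. The 7 genes were selected on measured values, because Fos, Jun and Junb were far higher in both bone marrow (BM) libraries than in the fetal liver (FL) libraries. Differences between BM and FL are therefore given here as a description, without a test.

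RNA was sequenced from 4 samples, 1 per group, all of BRE-GFP transgenic mice kept on a C57BL/6 background. The transgene was passed on by heterozygous fathers. The groups were GFP+ and GFP- LSK-SLAM cells of the FL at embryonic day 14, and GFP+ and GFP- LSK-SLAM cells of adult BM. GFP in these mice is driven by a BMP responsive element, so GFP+ cells are those in which Smad1/5 signalling was active when they were isolated (BMP-activated), and earlier activation is not recorded. The age of the adult mice used for RNA, their sex and the number of animals behind each sample are not stated in the sources used here. No group had a replicate, so that the tissues serve as the only repeat of the GFP contrast. Values are FPKM, in which fragments are scaled to the length of the transcript and to the mapped reads of the library, so that levels of different genes are compared per length of transcript. The number of reads behind a value cannot be read from the FPKM files, and a value of 0 means only that the gene is listed at 0. Genes above 0 numbered 12372 (FL GFP+), 15556 (FL GFP-), 13489 (BM GFP+) and 17345 (BM GFP-), so that a listed 0 was most frequent in FL GFP+ cells. Because these are bulk samples, fewer cells of a type and less RNA per cell cannot be told apart.

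AP-1 is a dimeric transcription factor that binds DNA through a basic region and holds its partners together by a leucine zipper. Jun proteins pair with each other, with Fos proteins or with related Atf proteins, whereas Fos proteins need a Jun partner. Fos, Fosb, Jun and Junb are immediate-early genes, which are switched on within minutes of growth factor, cytokine or stress signals through MAP kinases, without new protein synthesis, and their messenger RNAs are short-lived. Jund, Fosl1 and Fosl2 respond later or are expressed more steadily. In blood, Junb restrains expansion of HSCs and myeloid cells, and Jun takes part in monocytic differentiation. Isolation of cells by dissociation and sorting is also known to induce immediate-early genes. In the study, FL was disrupted mechanically, whereas BM was flushed from the bones through a needle and fractionated on Ficoll. Handling thus differed between the tissues, and tissue and handling cannot be told apart here.

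The promoters of the immediate-early members are shown because these 4 genes had the highest FPKM of the family in both BM libraries and differed most between the tissues. RefSeq promoter sequences (GRCm38.p6) were found for 6 of the 7 members. The 150 bases before the start site lie at chr12:85473740-85473889 on the plus strand for Fos, and on the minus strand at chr7:19310046-19310195 for Fosb, chr4:95052223-95052372 for Jun and chr8:84978749-84978898 for Junb. Capitals mark TGACG, the core of the cAMP response element, TGACATCA, the site through which Jun and Atf2 act on the Jun promoter, and TATAAA, the TATA box.
Fos: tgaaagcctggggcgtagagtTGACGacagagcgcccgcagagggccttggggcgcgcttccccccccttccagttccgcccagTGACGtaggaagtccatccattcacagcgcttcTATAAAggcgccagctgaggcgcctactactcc
Fosb: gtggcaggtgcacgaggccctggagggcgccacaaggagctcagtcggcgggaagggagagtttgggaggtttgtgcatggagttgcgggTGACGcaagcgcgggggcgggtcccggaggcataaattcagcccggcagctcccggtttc
Jun: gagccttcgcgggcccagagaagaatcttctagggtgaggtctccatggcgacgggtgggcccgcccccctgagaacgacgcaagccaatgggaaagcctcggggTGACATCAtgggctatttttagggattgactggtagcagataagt
Junb: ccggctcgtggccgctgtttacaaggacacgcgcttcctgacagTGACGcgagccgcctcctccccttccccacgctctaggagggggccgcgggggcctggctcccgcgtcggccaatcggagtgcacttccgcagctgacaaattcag

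TGACG was present on either strand in the promoters of 3 of the 6 members, Fos, Fosb and Junb, compared with 13.3% of all 32851 promoters of that length. Fos held it at 129 and again at 66 bases before the start site. The longer TGACATCA was found in 1 member, Jun, at 45 bases before the start, and in 2.32% of all promoters. TATAAA was found in Fos alone among the members, at 33 bases before the start, and in 7.57% of all promoters. None of the 6 held the palindrome TGACGTCA, the AP-1 site TGACTCA or a CArG box (the serum response factor site) in this window, and these were found in 1.36%, 2.84% and 0.916% of all promoters. Sequence outside this window was not searched, so a site further upstream would have been missed. TGACG also forms part of TGACGTCA. A match of letters is a description and was not tested as a binding site.

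Before the AP-1 values, the labels were compared with marker genes. Of the 11 fetal identity genes that reached an FPKM of 1 in any library, 9 had an FPKM more than 2 times higher in FL than in BM in both fractions, compared with 7.86% of all genes. Igf2bp1, which encodes a fetal RNA-binding protein, had an FPKM of 426 (FL GFP+), 58.8 (FL GFP-) and 0.0184 (BM GFP-) and was listed at 0 in BM GFP+ cells. The growth-control RNA H19 had 44.7 and 42.1 in the FL, 0.0368 (BM GFP-), and was listed at 0 in BM GFP+ cells. The tissue labels thus matched these genes. No gene of the reporter is listed by which the GFP labels could be checked, so directions between the GFP fractions rest on the labels alone. For some genes the plots of the study appear to show the deposited values under other sample names, and the deposited labels were followed throughout, so every GFP direction below depends on them. The sort was less evenly reflected. Of 12 stem cell genes, 2 were higher in BM by the 2-fold rule, Ly6a and Cd48, and 2 were lower. Ly6a, which encodes the positive gate Sca1, had an FPKM of 19.7 (FL GFP+), 46.3 (FL GFP-), 286 (BM GFP+) and 146 (BM GFP-). Cd48, whose product was used as a negative gate, had 51.4 (FL GFP+), 17.4 (FL GFP-), 267 (BM GFP+) and 126 (BM GFP-). Procr, an HSC surface receptor, had 106 and 113 in the FL and 60.8 (BM GFP-) and was listed at 0 in BM GFP+ cells, as was Tek, the angiopoietin receptor, which had 5.54 (BM GFP-).

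Genes of the blood lineages, some of them also expressed by progenitors, moved with the tissue contrast. All 8 neutrophil genes examined and all 8 B cell genes were more than 2 times higher in BM than in FL in both fractions, as were 6 of 7 T and NK cell genes, 6 of 9 macrophage and monocyte genes, 5 of 7 erythroid genes and 4 of 6 megakaryocyte genes. The share over all genes is 12.2%. Summed FPKM of the neutrophil genes was 354 (FL GFP+), 154 (FL GFP-), 60735 (BM GFP+) and 14708 (BM GFP-). For the B cell genes the sums were 96.3, 43.5, 3493 and 955 in the same order, with 5 of the 8 genes listed at 0 in FL GFP+ cells, 3 in FL GFP- and none in the BM. The macrophage and monocyte genes summed to 215, 259, 4844 and 1146, the T and NK cell genes to 27.6, 19.04, 682 and 409, and the erythroid genes to 1220.0, 1109, 25457 and 3484. No gene of these lists was listed at 0 in either BM library. With equal FPKM totals 3 of the 9 macrophage and monocyte genes passed the rule. The lineage gate of the sort is meant to remove cells with T cell, B cell, erythroid and myeloid surface markers, and a further myeloid marker was added for BM only. It holds no megakaryocyte marker. The part of these genes' source cells in the AP-1 values was not tested.

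Fos was the AP-1 gene that differed most between the tissues. Its FPKM was 5.52 (FL GFP+), 1.99 (FL GFP-), 768 (BM GFP+) and 638 (BM GFP-). Both BM libraries stood above both FL libraries, and the lowest BM value was 116 times the highest FL value. In the FL, Fos exceeded 35.6% of the detected genes in GFP+ and 33.9% in GFP- cells, whereas in the BM it exceeded 98.6% and 99.0%, as the gene of rank 194 and rank 178. On the log2(FPKM + 1) scale Fos was 6.88 higher in BM than in FL for GFP+ cells and 7.74 higher for GFP- cells, a mean of 7.31 (SD 0.61 over these 2 differences).

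The remaining Fos genes had lower levels. Fosb, a close relative of Fos, had an FPKM of 0.0289 (FL GFP+), 0.603 (FL GFP-), 21.3 (BM GFP+) and 6.51 (BM GFP-). It was thus near 0 in both FL libraries and highest in BM GFP+ cells, with a BM minus FL difference of 3.33 (SD 1.56) on the log2(FPKM + 1) scale. Fosl2, which encodes Fra-2, had 0.537, 0.410, 1.03 and 0.870 in the same order. Its libraries did not overlap between tissues either, but it exceeded only 17.7% to 31.9% of the detected genes of a library, and the difference was 0.40. Fosl1, which encodes Fra-1, was listed at 0 in all 4 libraries.

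Among the Jun genes, Jun and Junb were detected at moderate levels in the FL and at high levels in the BM. Jun had an FPKM of 22.1 (FL GFP+), 33.0 (FL GFP-), 471 (BM GFP+) and 418 (BM GFP-). The BM libraries lay 21.3-fold above the FL for GFP+ and 12.7-fold above it for GFP- cells, and the mean log2(FPKM + 1) difference was 3.99 (SD 0.52). Junb had an FPKM of 30.8, 12.5, 744 and 379 in the same order. Its fold differences were 24.1 for GFP+ and 30.3 for GFP- cells, with a mean log2 difference of 4.68 (SD 0.19). Of the 3 leading genes, Junb had the tissue difference that varied least between the fractions. Jund, the member usually expressed steadily, had an FPKM of 1.01 (FL GFP+), 0.815 (FL GFP-), 11.6 (BM GFP+) and 3.74 (BM GFP-), a mean log2 difference of 2.01 (SD 0.89).

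**Figure D1:**
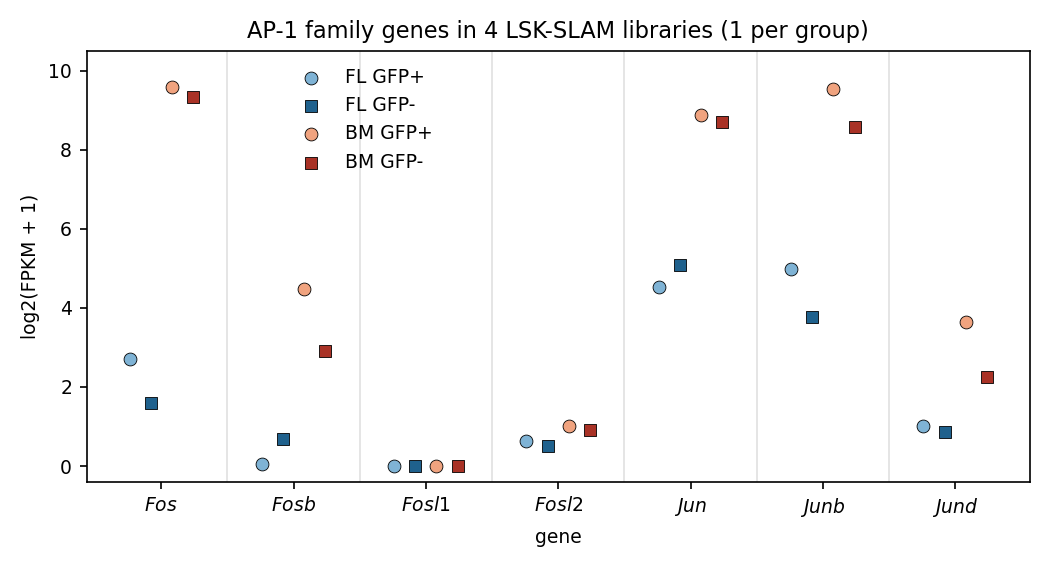
Levels of the 7 AP-1 genes (x axis) as log2(FPKM + 1) (y axis), with 1 point per library, circles for GFP+ and squares for GFP- cells, blue for FL and red for BM. Fos, Jun and Junb lie above 8.5 in both BM libraries and at or below 5.09 in both FL libraries, and Fosl1 lies at 0 throughout.

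Of the 6 members that reached an FPKM of 1 in any library, 5 had an FPKM in BM more than 2 times that in FL in both fractions, compared with 12.2% of the 13609 genes that passed the same filter, and none was lower by that rule, compared with 7.86%. The lowest BM value exceeded the highest FL value in 6 of the 6 members, compared with 26.2% of all genes. As the members were chosen on this contrast, nothing is read from these counts. Among all 13609 genes, the mean difference of Fos ranked 23, that of Junb 153, that of Jun 240, that of Fosb 367, that of Jund 976 and that of Fosl2 5150. The balance over all genes depended on the scaling of the libraries, since 1655 genes were higher and 1070 lower in BM as deposited (60.7% higher), whereas 1231 were higher and 1900 lower with equal FPKM totals (39.3% higher). Relative to the median of all genes, Fos was 7.24 higher in BM as deposited and 7.22 higher with equal totals, and Jun was 3.92 and 3.83 higher. With the GFP- libraries alone, 6 of the 6 members were more than 2 times higher in BM, compared with 20.0% of all genes, and with the GFP+ libraries alone 5 were, compared with 32.1%. Genes of the blood lineage lists were mostly higher in the BM library of either fraction.

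**Figure D2:**
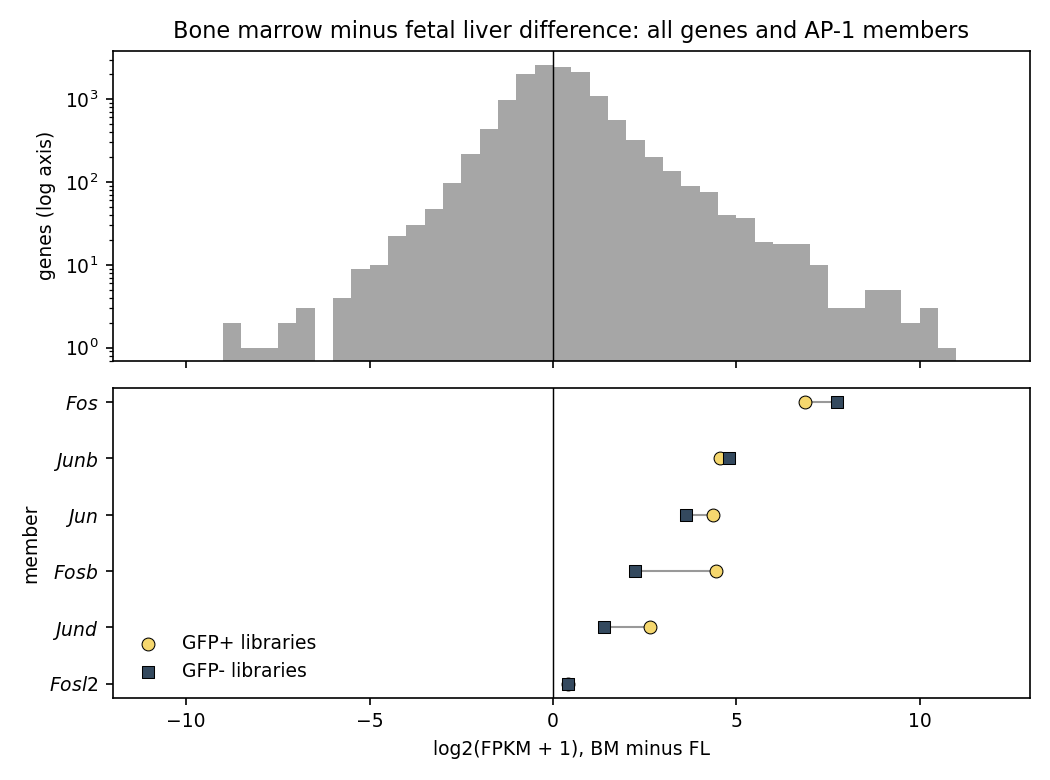
Upper panel, number of genes (log axis) by the mean difference in log2(FPKM + 1) between BM and FL for the 13609 genes that reached an FPKM of 1 in any library. Lower panel, the same difference for 6 AP-1 members, with a circle for the GFP+ and a square for the GFP- libraries. Fos lies at 6.88 and 7.74, in the far right tail, whereas both points of Fosl2 lie near 0.40.

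The make-up of the family within a library does not depend on how libraries are scaled to each other. The FPKM ratio of Fos to Jun was 0.250 (FL GFP+) and 0.0603 (FL GFP-), and it was 1.63 (BM GFP+) and 1.53 (BM GFP-). Fos messages thus stood below those of Jun per length in both FL libraries and above them in both BM libraries. The 4 Fos genes together held 10.1% (GFP+) and 6.09% (GFP-) of the summed FPKM of the family in FL cells, compared with 39.2% and 44.7% in BM cells. The order of Jun and Junb was not the same in all libraries, since the ratio of Junb to Jun was 1.40 (FL GFP+), 0.379 (FL GFP-), 1.58 (BM GFP+) and 0.906 (BM GFP-), higher in GFP+ cells of each tissue. Jund contributed 1.87% and 1.76% of the summed Jun genes in FL cells, compared with 0.942% and 0.467% in BM cells. The 7 genes took 0.00928% and 0.00912% of the FPKM total in FL GFP+ and GFP- cells and 0.202% and 0.198% in BM GFP+ and GFP- cells.

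The GFP contrast was not used to choose the members and asks whether AP-1 genes differ between BMP-activated and non-BMP-activated cells. In the FL the FPKM of Fos was 2.77-fold higher and that of Junb 2.46-fold higher in GFP+ cells, and that of Jun was 1.49-fold higher in GFP- cells. Differences as large as those of Fos and Jun were common between the FL libraries, and one as large as that of Junb was less so. For Jun, 50.3% of the 3728 genes within 2-fold of its FL level differed by more. On the log2(FPKM + 1) scale the difference of Fos was 1.12, and 53.5% of the 2837 genes within 2-fold of its FL level differed by more. For Junb it was 1.24, and 18.4% of 3860 genes of similar level differed by more. Jund and Fosl2 differed by 0.15 and 0.12 in the FL. In the BM the fractions were close for Fos, with a 1.20-fold difference, and for Jun, with 1.13-fold, both higher in GFP+ cells. Junb was 1.96-fold, Jund 3.09-fold and Fosb 3.28-fold higher in BM GFP+ cells, and on the log2 scale 20.8%, 21.1% and 13.6% of genes of similar BM level differed by more.

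Across both tissues, limma was fitted on the log2(FPKM + 1) scale, blocking on tissue, to all 11707 genes that reached an FPKM of 1 in 2 or more libraries, which included 5 members. None of the 5 members (0) passed an adjusted p of 0.05, compared with 0.111% of all genes, and the fit rests on 1 residual degree of freedom per gene. Junb had the highest log2 difference between GFP+ and GFP- cells, 1.10 (SE 0.34, 95% interval 0.33 to 1.88), with an adjusted p of 0.735 by limma, and it was higher in GFP+ cells in 2 of 2 tissues. For Fos the estimate was 0.70 (SE 0.42, interval -0.27 to 1.66) with an adjusted p of 0.948. The estimate for Jun was -0.19 (SE 0.35), its interval of -1.002 to 0.62 included differences in either direction, and those of Fosb and Jund were wider. The unadjusted limma p was under 0.05 for 1 of the 5 members, Junb, and for 732 of all genes, or 6.25%. The interval of Junb included 0 with equal FPKM totals (-0.08 to 1.59), without the trend (-0.29 to 2.50) and without the tissue block (-4.46 to 6.67). It lay above 0 with a pseudocount of 0.1 (0.37 to 1.90) and without the filter on low FPKM (0.36 to 1.85). By the rule of a more than 2-fold difference in the same direction in both tissues, 0 of 6 members passed toward GFP+ cells, compared with 3.26% of all genes, and 0 passed toward GFP- cells, compared with 8.98%. BMP target genes were examined beside them. The summed FPKM of 8 such genes was 221 (FL GFP+), 169 (FL GFP-), 329 (BM GFP+) and 93.8 (BM GFP-). Each sum follows its most abundant genes. In the FL, Id1 had 109 (GFP+) and 56.5 (GFP-), whereas Id3 had 96.6 and 97.0. For the 6 that reached an FPKM of 1, the median log2(FPKM + 1) difference between GFP+ and GFP- cells was 0.06 (FL) and 1.26 (BM). In the BM, 4 were more than 2 times higher in GFP+ cells and 1 in GFP- cells.

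The AP-1 genes and the blood lineage lists were also set side by side between the BM fractions. Summed FPKM in GFP+ over GFP- cells was 4.13 for the neutrophil genes, 4.23 for the macrophage and monocyte genes, 3.66 for the B cell genes, 1.67 for the T and NK cell genes and 7.31 for the erythroid genes (in which Hba-a1 and Hba-a2 are listed with the same values). It was 0.840 for the megakaryocyte genes. The corresponding ratios were 1.20 for Fos, 1.13 for Jun, 1.96 for Junb, 3.09 for Jund and 3.28 for Fosb. Single genes could differ from the sum of their list. Of the 8 neutrophil genes, 6 were more than 2 times higher in BM GFP+ cells. Mpo, at 5777 (BM GFP+) and 4754 (BM GFP-), and Elane, at 3991 and 3042, were not. Of the 12 stem cell genes used to check the sort, 10 were more than 2 times higher in BM GFP- cells, with a median log2(FPKM + 1) difference of -1.34 between GFP+ and GFP- cells. The part of other cells in these ratios was not tested. In the FL, the hepatocyte genes summed to 361 in GFP+ and 29.4 in GFP- cells, and the 7 AP-1 genes to 60.0 and 49.4, with Fos and Junb higher in GFP+ and Jun higher in GFP- cells.

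**Figure D3:**
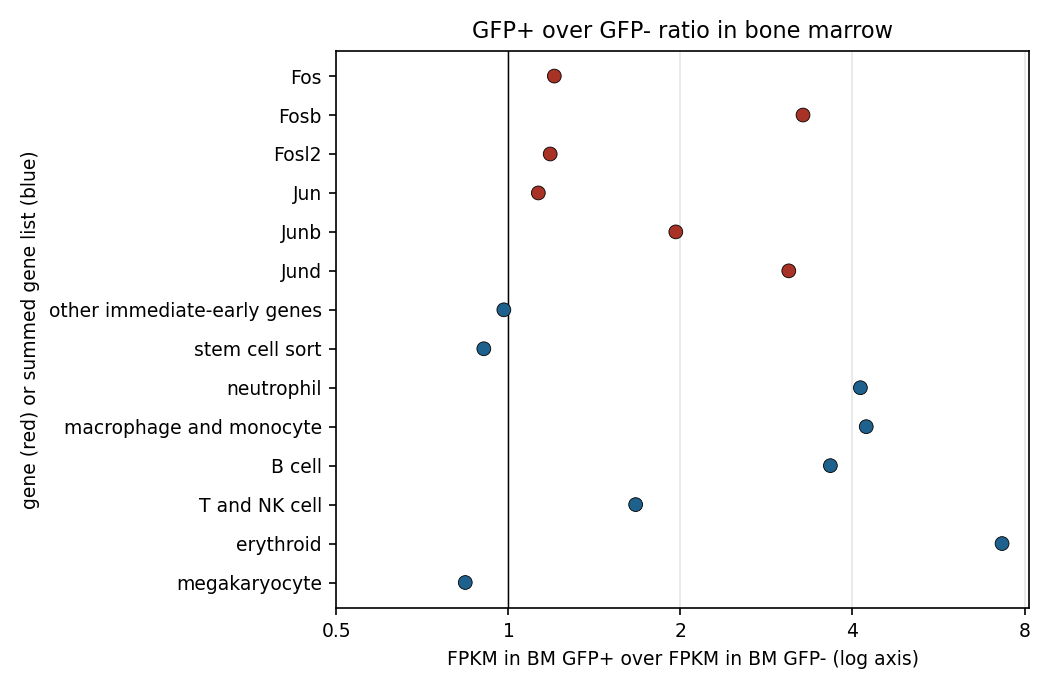
FPKM in BM GFP+ cells over FPKM in BM GFP- cells (x axis, log axis), for 6 AP-1 genes in red and for the summed FPKM of 8 gene lists in blue, where a sum follows the most abundant genes of its list. Fos (1.20) and Jun (1.13) lie close to 1, as does the sum of the other immediate-early genes (0.982), although single genes of that list do not. The neutrophil, macrophage, B cell and erythroid sums lie between 3.66 and 7.31. The T and NK cell sum lies at 1.67, the stem cell sum at 0.906 and the megakaryocyte sum at 0.840.

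The immediate-early genes that usually accompany Fos and Jun were examined next. Of the 18 that reached an FPKM of 1 in any library, 14 were more than 2 times higher in BM than in FL in both fractions and none was lower, with a median log2(FPKM + 1) difference of 2.56 against 0.07 over all genes. By the same rule 12.2% of all genes were higher and 7.86% lower. With equal FPKM totals 12 of the early genes were higher and 1 was lower, and of all 13609 genes 1231 were higher and 1900 lower. Dusp1, a phosphatase that inactivates MAP kinases, had an FPKM of 1.37 (FL GFP+), 25.8 (FL GFP-), 435 (BM GFP+) and 478 (BM GFP-). The zinc-finger gene Egr1 had 0.110, 1.16, 37.4 and 80.9 in the same order, and was thus higher in GFP- cells of the BM. Klf2, a zinc-finger factor of quiescent lymphocytes and endothelium, had 127 (BM GFP+) and 32.3 (BM GFP-), 0.749 (FL GFP-), and was listed at 0 in FL GFP+ cells. The summed FPKM of the 21 genes was 196 and 222 in the FL against 1694 and 1725 in the BM. The near-equal BM sums hid differences in both directions, since 6 genes were more than 2 times higher in the GFP+ fraction and 3 in the GFP- fraction.

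Partners that dimerize with AP-1 proteins or compete with them were counted by the same rule, for which the shares over all genes are 12.2% higher and 7.86% lower. Of 20 bZIP partners and inhibitors, 3 were higher and 1 lower in BM by the 2-fold rule, with a median difference of 0.25. These counts are near the shares of all genes. With the GFP+ libraries alone 8 were higher, compared with 32.1% of all genes, and with the GFP- libraries alone 6, compared with 20.0%. Atf3, itself an early stress gene, had an FPKM of 4.64 (BM GFP+) and 4.47 (BM GFP-) and was listed at 0 in both FL libraries. Atf4, the effector of the integrated stress response, had 67.1 and 73.3 in the FL against 226 and 214 in the BM. Atf2, a partner of Jun, was the gene lower in the BM, with 37.5 and 31.0 in the FL against 14.1 and 13.4 in the BM.

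Upstream of AP-1 lie the MAP kinases and the serum response factor complex. Of 21 kinase genes, 2 were higher and 1 was lower in BM, with a median difference of 0.44, and with equal FPKM totals 1 was higher and 2 were lower. The GFP+ libraries alone gave 7 higher, compared with 32.1% of all genes, and these counts are near the shares of all genes. Mapk13, which encodes p38 delta, had an FPKM of 14.1 (BM GFP+) and 10.8 (BM GFP-), 0.149 (FL GFP-), and was listed at 0 in FL GFP+ cells. Mapk12, which encodes p38 gamma, had 0.0507, 2.73, 0.210 and 6.19 in FL GFP+, FL GFP-, BM GFP+ and BM GFP- cells, so that its GFP+ libraries were both near 0. Rps6ka3, the kinase RSK2, was the gene lower in BM, with 7.50 and 9.94 in the FL against 0.0790 and 1.49 in the BM. Of 9 serum response factor genes and partners, through which growth signals reach the Fos promoter, none was higher and 1 was lower in BM. The GFP+ libraries alone gave 3 higher and 1 lower, and the share of all genes higher was 32.1%. The GFP- libraries alone gave 0 higher, compared with 20.0% of all genes, and 3 lower. With equal FPKM totals 0 were higher and 2 were lower. The gene lower in both fractions was the cofactor gene Mkl2, at 10.7 and 9.86 in the FL against 2.43 and 2.33 in the BM.

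Among 10 genes that govern turnover of AP-1 messages or proteins, 2 were higher in BM, compared with 12.2% of all genes, and none was lower. The GFP+ libraries alone gave 6 higher, compared with 32.1%. Both genes encode proteins that bind AU-rich messages such as that of Fos and promote their decay. Zfp36 (tristetraprolin), itself an early gene, had an FPKM of 16.3 (FL GFP+), 12.6 (FL GFP-), 219.7 (BM GFP+) and 135 (BM GFP-), and its relative Zfp36l1 had 7.76, 6.90, 93.6 and 20.4. The ubiquitin ligase genes of the list did not pass the rule in either direction.

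Genes that AP-1 is known to activate include proteases, chemokines and growth factors. Of the 20 that reached an FPKM of 1 in any library, 11 were more than 2 times higher in BM in both fractions and 1 was lower, with a median difference of 1.59. The shares over all genes are 12.2% higher and 7.86% lower. With equal FPKM totals 10 of the 20 were higher and 2 were lower. Lgals3, which encodes galectin-3, had 152 (BM GFP+) and 37.3 (BM GFP-) and 1.09 (FL GFP-), and the gelatinase gene Mmp9 had 146, 28.5 and 1.03. Both were listed at 0 in FL GFP+ cells. Many genes of this list, among them Lgals3, Mmp9 and the chemokine gene Ccl3, are also expressed by mature myeloid cells, whose markers were higher in the same libraries. The FPKM of Ccl3 was 98.1 (BM GFP+) and 45.2 (BM GFP-). The gene lower in BM was Hbegf, a growth factor gene, with 11.3 and 8.53 in the FL against 1.997 and 3.44 in the BM.

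**Figure D4:**
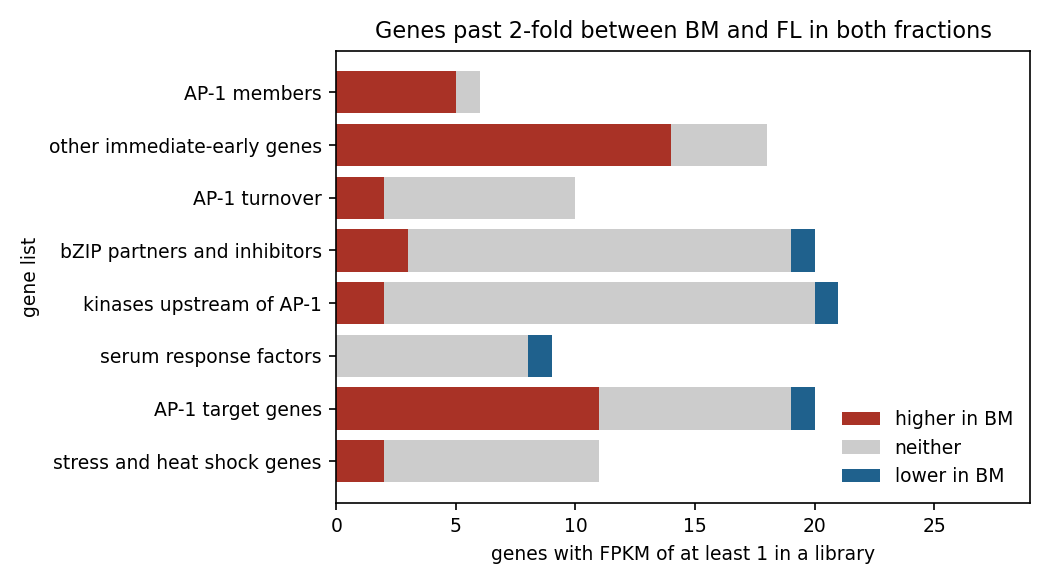
Number of genes in each list (x axis) that were more than 2 times higher in BM in both fractions (red), more than 2 times lower (blue) or neither (grey), among genes that reached an FPKM of 1 in any library. Higher in BM were 5 of 6 AP-1 members, 14 of 18 other immediate-early genes and 11 of 20 target genes, compared with 2 of 21 upstream kinase genes and 0 of 9 serum response factor genes. The share over all genes is 12.2%.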

How the data were processed

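RNA of sorted LSK-SLAM cells was made into SMARTer libraries and sequenced by the authors. Their alignment used TopHat with Bowtie, and Cufflinks 2.2.1 gave FPKM. Cuffquant corrected these for fragment bias and for reads that map more than once, and Cuffnorm set the 4 samples on a common scale by its geometric method. The FPKM deposited by the authors hold no counts, so the counting error of a value cannot be computed from them. The mapped reads of each library, given in the study's methods, were not used here. The paper's methods name NCBI37/mm9 as genome and the submitters' processing notes name mm10. The files hold no coordinates.

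Groups follow the sample titles. The 13609 genes that reached an FPKM of 1 in any sample were compared between tissues as log2(FPKM + 1), and a gene was counted as higher when its FPKM was more than 2 times that of the other tissue in both fractions. The GFP contrast was fitted with limma 3.58.1 in R 4.3.3 (tissue as a block, eBayes with trend, Benjamini-Hochberg adjustment over 11707 genes, threshold 0.05). The fit was run on simulated data with the same noise for every gene and with changes larger than the members' estimates. It therefore does not show whether changes of the members' size would be found. Descriptions used Python 3.11.15 with pandas 2.3.3 and numpy 2.4.6, and figures matplotlib 3.10.9. Promoters are RefSeq sequences of GRCm38.p6. The members and gene lists were chosen with earlier results of these data known. Besides the 7 members, the genes named of a list are the at most 3 highest and 3 lowest among those past the rule, the highest marker gene, and the 5 genes most like Fos, Jun or Junb. Others (Procr and the chosen marker examples) were named after their values were seen, and some genes that the rule names are not reported here. Alternatives were other scalings, thresholds, pseudocounts, filters and single fractions.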

Additional observations from a re-analysis of the deposited data

Results flagged for a closer look

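The GFP difference of Fosb and of Jun had opposite signs in the tissues. For Fosb, log2(FPKM + 1) in GFP+ minus GFP- cells was -0.64 (FL) and 1.57 (BM), a gap of 2.21, and both FL values were under an FPKM of 1. For Jun the values were -0.56 (FL) and 0.17 (BM), a gap of 0.73. With 1 sample per group neither gap could be tested.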

How the results depend on the processing

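The count of members more than 2 times higher in BM stayed within 1.5 times of 5 under every scaling, threshold and single fraction tried, and the BM minus FL difference of each of the 6 detected members kept its sign. It ranged from 6.85 to 7.74 for Fos, 3.47 to 4.35 for Jun, 4.17 to 4.81 for Junb, 2.23 to 5.30 for Fosb, 1.38 to 2.73 for Jund and 0.19 to 0.88 for Fosl2. Equal totals shifted the median difference of all genes by -0.44 and reference genes by -0.34. At 1.5-fold in place of 2-fold, 1 member passed between the GFP fractions in both tissues (Junb) instead of 0. No member passed the adjusted p of 0.05 by limma under any alternative, which does not show that an effect was absent. The count over all genes went from 13 to 1 with a pseudocount of 0.1, to 0 without the trend (685 genes at an unadjusted p under 0.05) and to 4 without the block. The pseudocount of 0.1 also reversed the GFP estimate of Fosb, to -0.37. For the other gene lists, under equal totals or a single fraction (the latter added after seeing the data), 48 counts of genes higher in BM stayed within 1.5 times and 9 did not, and for genes lower in BM 38 did and 19 did not. The GFP+ libraries alone gave 9 stem cell genes lower in BM in place of 2. The GFP fit pairs the fractions within each tissue through its block. No pairing by replicate number could be made, since each group held 1 sample. Values near 0, as for Fosb and Fosl2 in the FL, cannot be given an error from these files.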

Other observations

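Genes whose levels over the 4 libraries were most like those of the leading members were sought among 11707 genes, by the Euclidean distance between log2(FPKM + 1) profiles after each was centred on its mean. Over 4 libraries this is a description. Nearest to Fos were Cst7, which encodes the protease inhibitor cystatin F, H2-Q8, Mir6974, AF357399 and Cd72, a B cell surface gene, at distances of 0.80 to 1.19. All 5 were listed at 0 in both FL libraries, unlike Fos itself. Nearest to Jun were H2-Q5 and Btg2, at 0.09 and 0.21, followed by Rbks, Pkp3 and Snord17. Btg2, an antiproliferative early gene, had an FPKM of 2.04 (FL GFP+), 3.14 (FL GFP-), 69.3 (BM GFP+) and 54.9 (BM GFP-). Among the nearest to Junb were Irf8, a monocyte and B cell regulator, H2-Q4, Mpo and Serpinb1a. Irf8 had 15.1, 4.79, 320.0 and 132 in the same order, at a distance of 0.38, and Mpo, the primary granule peroxidase, had 247, 117, 5777 and 4754. The H2-Q genes are near-identical copies, and the split of reads among them is uncertain.

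Heat shock and stress genes were a further group examined. Of 11 genes, 2 were higher in BM in both fractions, Hspa1a and Hspa5, and none was lower. With equal FPKM totals 1 was higher. By this rule 12.2% of all genes were higher and 7.86% lower, which also applies to the lists that follow. Hspa1a, an inducible chaperone gene, had an FPKM of 1.92 (FL GFP-), 10.4 (BM GFP+) and 5.69 (BM GFP-) and was listed at 0 in FL GFP+ cells. Hspa5, the chaperone of the endoplasmic reticulum, had 226 and 178 in the FL against 568 and 643 in the BM. Of 7 stroma and endothelium genes, 2 were higher and 1 was lower in BM. Cxcl12, the chemokine of the HSC niche, had 67.7 (BM GFP+), 7.66 (BM GFP-) and 1.82 (FL GFP-) and was listed at 0 in FL GFP+ cells. Among 12 reference genes, 1 was higher in BM by the 2-fold rule, B2m, with 781 and 885 in the FL against 4033 and 2856 in the BM. Of 7 hepatocyte genes 5 were lower in BM, led by Alb, with 139.5 and 9.49 in the FL, 0.0737 (BM GFP-) and a listed 0 in BM GFP+ cells. Of 6 BMP response genes 3 were higher in BM, led by Id2, and 1, Smad6, was lower, whereas equal FPKM totals gave 1 higher and 2 lower. Id2, an inhibitor of helix-loop-helix factors, had 11.0 and 9.95 in the FL against 132 and 23.5 in the BM, and Smad6, an inhibitory Smad, had 3.86 and 3.30 against 0.686 and 0.529.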
